A study of Mus musculus with 6 samples.

Results

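Amino acid transporter genes were followed across 3 groups of cultured mouse chondrocytes, the cells that make cartilage. They were taken as every entry of the deposited count table marked mRNA whose symbol begins with Slc1a, Slc3a, Slc6a, Slc7a, Slc36a, Slc38a or Slc43a followed by a number. The rule itself used no measured value, but it was chosen with earlier results of these data known. It gave 64 of the 44788 entries. A pair of them, Slc7a6os and Slc6a19os, are not transporters but genes named for lying on the strand opposite a transporter gene. The Slc6a family also holds carriers of creatine, taurine, GABA and monoamines, and Slc43a3 encodes a purine nucleobase transporter.

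The cells came from the femoral epiphysis, the cartilage end of the thigh bone, of C57BL/6 mice at postnatal day 1, and grew in DMEM/F12 with 10% serum. The series design uses the term P2 for them, which the labels do not explain. Each of the 3 groups had 2 libraries and, per the treatment protocol, 0.1% DMSO for 48 h. Control had DMSO alone, although the design text names PBS for it. The TGF-alpha group also had 10 ng/ml transforming growth factor alpha, which binds and activates EGFR, the receptor of epidermal growth factor. In the third group, 10 µM gefitinib, an inhibitor of the EGFR kinase, was added 30 min ahead of the ligand and stayed with it. A group with gefitinib alone was not analysed here, so the drug's own effect and its effect on the ligand cannot be told apart. Nothing in the labels says that replicates were separate cultures or litters, so p-values measure only the spread between these libraries, which may be technical.

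Amino acids cross membranes through carriers with overlapping substrates. Some exchange one amino acid for another, such as the light chains of the Slc7a family, which reach the cell surface bound to a heavy chain of the Slc3a family. Others use the sodium gradient, such as the glutamate carriers of Slc1a, the system A carriers of Slc38a and the glycine carrier GlyT1 (Slc6a9). The transcription factor ATF4 switches on many of these genes when amino acids run short, through a composite C/EBP-ATF site called the amino acid response element. Leucine and arginine brought in by such carriers are sensed at the lysosome by the mTORC1 pathway. Chondrocytes use glycine and proline in bulk, since both are major residues of collagen.

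Promoter sequence was searched for the core of the amino acid response element, because the genes of the ATF4 program described further on changed in the same libraries. RefSeq promoters of GRCm38.p6, from 250 bases before to 50 bases after each start site, were found for 46 of the 64 genes, 24 of which were tested below. The core, TGATGNAA on either strand, lay in 3 of the 46 (6.52%), all 3 of them tested (12.5% of the 24), against 3.97% of 32851 promoters and 4.51% of 27025 genes in the RefSeq table. These promoters are shown 5′ to 3′ on the strand of the gene, with the matches in capitals. They belong to the cystine carrier Slc7a11 (chr3:50443564-50443863, minus strand), to Slc1a4 (chr11:20332664-20332963, minus strand), a carrier of alanine, serine and cysteine, and to Slc7a7, a light chain called y+LAT1. Of the 5 start sites of Slc7a7, 2 have promoters with a match, and the one with 2 matches is printed (chr14:54417895-54418194, minus strand).
Slc7a11: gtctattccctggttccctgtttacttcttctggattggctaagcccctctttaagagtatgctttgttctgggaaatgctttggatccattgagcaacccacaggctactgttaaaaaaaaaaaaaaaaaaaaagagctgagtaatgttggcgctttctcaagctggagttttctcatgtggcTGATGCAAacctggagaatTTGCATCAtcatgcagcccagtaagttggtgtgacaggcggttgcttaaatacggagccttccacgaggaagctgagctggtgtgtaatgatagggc
Slc1a4: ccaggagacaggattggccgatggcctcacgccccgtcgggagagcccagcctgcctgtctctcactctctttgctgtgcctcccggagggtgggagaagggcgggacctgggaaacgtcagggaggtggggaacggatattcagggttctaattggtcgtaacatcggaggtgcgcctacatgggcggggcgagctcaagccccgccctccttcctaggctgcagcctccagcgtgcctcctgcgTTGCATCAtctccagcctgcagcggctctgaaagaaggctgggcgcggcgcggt
Slc7a7: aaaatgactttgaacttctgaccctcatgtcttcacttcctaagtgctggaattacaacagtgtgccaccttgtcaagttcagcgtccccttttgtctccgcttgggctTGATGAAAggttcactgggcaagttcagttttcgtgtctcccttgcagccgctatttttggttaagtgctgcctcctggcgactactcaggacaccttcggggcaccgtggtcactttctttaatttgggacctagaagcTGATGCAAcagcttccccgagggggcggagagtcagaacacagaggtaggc
Slc7a11 held 2 matches in opposite orientations that begin 66 and 47 bases before the start site, Slc1a4 held 1 that begins 4 bases before it, and Slc7a7 held 2. Transcript levels of these genes are given below: Slc7a11 and Slc1a4 fell with TGF-alpha, and Slc7a7 passed the test in no comparison. The AP-1 site, TGANTCA, bound by Fos and Jun factors, was in the promoters of 9 of the 46 genes (19.6%). Of the 24 tested it was in 5 (20.8%), Slc7a1, Slc38a7, Slc38a10, Slc6a12 and Slc6a17, against 8.97% of genes in the table. A match is a description of letters and not a site of binding. The tested genes Slc1a5, Slc38a1, Slc38a3, Slc43a3, Slc6a2, Slc6a6, Slc6a8, Slc7a2, Slc7a3, Slc7a4 and Slc7a5 are not in the promoter table.

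Total counts ranged from 12317407 to 16096263 per library, and a filter on low counts left 15362 entries to test. Replicates differed by more than sampling of reads alone gives (chi-square over its degrees of freedom 3.03 to 3.83). The 8 chondrocyte markers in the table were all detected, but their summed level was 67579 and 63202 CPM in control, 34097 and 33030 with TGF-alpha and 58277 and 55820 with TGF-alpha plus gefitinib. CPM here are counts scaled by library size after TMM, a correction for library makeup. Lists of markers of other cell types, some of which other cells also express, were low apart from the osteoblast list, and several moved with the groups. The 5 macrophage markers in the table summed to 4.29 and 4.46 CPM in control, 8.73 and 11.3 with TGF-alpha and 4.93 and 6.40 with both agents. Ptprc and Tyrobp were at 0 in every library, and of the 2 tested Cd68 rose 5.70-fold with TGF-alpha (adjusted p = 5.86e-06) and Lyz2 fell 2.99-fold (0.0218). The 6 glia markers summed to 14.7 and 14.1, 16.4 and 20.6, and 13.8 and 15.99 CPM in the same order, with Aqp4 and Mog at 0. The 7 neuron markers summed to 12.5 and 13.6, 6.27 and 4.73, and 15.8 and 16.5 CPM, with Rbfox3 at 0. The 5 epithelial markers summed to 0.702 and 0.509, 2.67 and 2.33, and 0.480 and 0.240 CPM, with Cdh16 at 0. Krt18 was the 1 tested, and it passed the filter on low counts only through the TGF-alpha libraries, where it was high. Its 9.93-fold higher level with TGF-alpha (edgeR adjusted p = 0.000184) is therefore no support for a shift. The 6 skeletal muscle markers summed to 5.54 and 4.27, 2.09 and 1.96, and 4.25 and 3.60 CPM. The 6 endothelial markers, with Cdh5 and Tie1 at 0, stayed between 0.546 and 1.15 CPM. The summed osteoblast markers, 5 genes that include Col1a1, were at 6544 and 6145, 2820 and 2935, and 4968 and 4460 CPM in the same order. The part of these shifts in the results below was not tested, and in bulk RNA fewer cells of a type and less RNA per cell cannot be told apart.

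Of the 64 genes, 35 passed the filter, 13 had no count in any library and 16 had counts but were not tested, with at most 26 counts over the 6 libraries. A gene with 0 counts is limited to 0.0360 CPM over all libraries together, if 3 counts are taken as the limit and only counting error is considered. The 13 without a count include the epithelial carriers Slc6a18, Slc6a20a, Slc6a14 and Slc7a13, the system N carrier Slc38a5 and the GABA carriers Slc6a11 and Slc6a13. The Slc6a family had the most members and the fewest tested in proportion, 6 of 21, whereas 8 of 11 Slc38a, 10 of 16 Slc7a and 5 of 7 Slc1a genes were tested. The heavy chain Slc3a1, partner of the renal light chain Slc7a9, had 11 counts in all and Slc7a9 had 1.

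Levels of different genes were set side by side as CPM per kilobase of exon in GENCODE M21. In control the highest was Slc3a2, the heavy chain CD98, at 82.5 and 75.2. It was followed by the leucine carrier Slc7a5 (59.2 and 57.5), Slc38a10 (56.8 and 54.1), the glutamine carrier Slc1a5 (51.1 and 51.8) and Slc1a4 (44.0 and 43.7). Then came Slc38a2 (36.7 and 37.6), Slc6a9 (23.2 and 24.1), and the arginine carriers Slc7a2 (17.2 and 17.8) and Slc7a1 (14.6 and 15.3). Each of these pairs stood apart from its neighbours in the order, but the order depends on which transcript is counted: with the longest transcript as the length, Slc38a10 and Slc1a5 ranked above Slc7a5. Light chains that pair with Slc3a2 were summed per kilobase, the 5 tested ones and Slc7a10, which had 1 count in all. The sum came to 0.895 and 0.966 of Slc3a2 in control, 0.795 and 0.776 with TGF-alpha, and 0.796 and 0.747 with TGF-alpha plus gefitinib. Slc7a5 made up 80.2% and 79.0% of that light chain sum in control, 71.1% and 68.0% with TGF-alpha and 82.4% and 79.7% with both agents.

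The first comparison, TGF-alpha against control, asks what activation of EGFR does to these genes. Most of the tested carriers that changed fell. At an adjusted p under 0.05 (edgeR's quasi-likelihood test, Benjamini-Hochberg over all tested entries), 21 of 35 passed (60.0%), 3 higher and 18 lower. Over all 15362 entries 29.9% passed, 15.9% higher and 14.0% lower. Of the 35, 15 (42.9%) passed with a change of at least 1.5-fold, against 13.6% of all entries. Slc7a8 is among the 18 and the 15, but it passed the filter on low counts only through the groups where it was high. Its call is no support for a fall. The median log2 fold change of the 35 was -0.33, beside 0.0039 for all entries. The libraries of the groups did not overlap in 30 of the 35, beside 64.1% of all entries. The summed counts of the 64 genes were 0.249% and 0.251% of each control library, 0.189% and 0.192% with TGF-alpha, and 0.272% and 0.266% with TGF-alpha plus gefitinib. The 9 carriers at 100 CPM or more in control, which made up 78.3% of the CPM of all 64, were lower with TGF-alpha in 9 of 9. They were picked by their control level. The share called lower among all entries at that level was not computed, so the 14.0% is no measure for them.

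**Figure D1:**
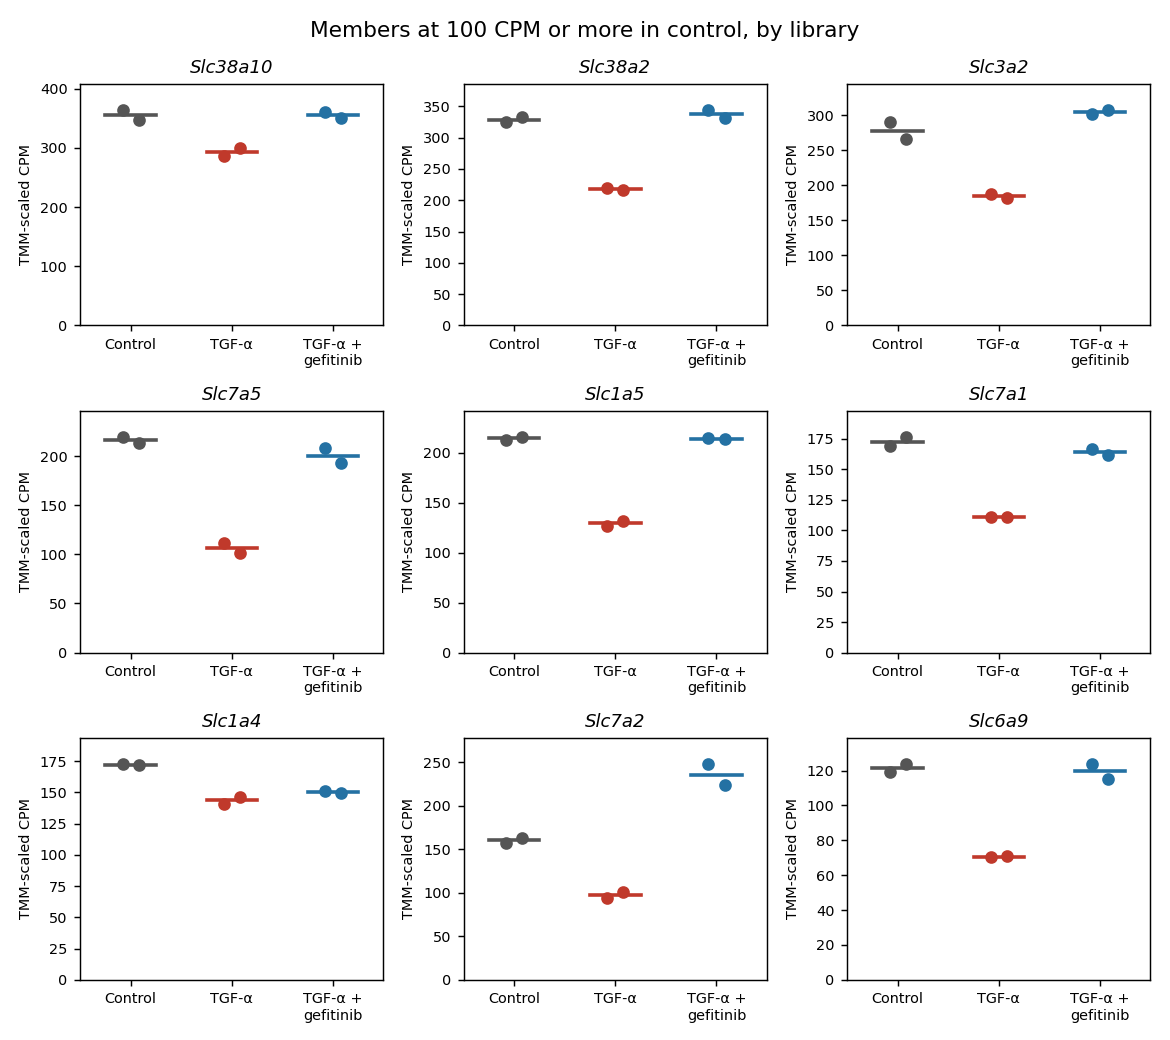
The 9 genes at 100 CPM or more in control, with TMM-scaled CPM on the vertical axes (from 0), 1 point per library and a line at the mean of each group. The TGF-alpha libraries lie below both control libraries in each panel, for example 111 and 101 CPM against 219.6 and 213 for Slc7a5, and Slc7a2 lies above control with gefitinib.

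The comparison of both agents with TGF-alpha alone asks how the inhibitor moves the genes in the presence of the ligand. It shares the TGF-alpha libraries with the first, so the comparisons are not independent and are given side by side. Of the 35 genes 23 passed (65.7%), 19 higher and 4 lower with gefitinib, against 34.0% of all entries, 17.0% higher and 16.9% lower. Their median log2 fold change was 0.39, beside 0.013 for all entries, and 15 of the 35 (42.9%) passed with a difference of at least 1.5-fold, against 15.0% of all entries. Slc7a8 and Slc6a12 are among the 19 and the 15. Both passed the filter on low counts only through groups where they were high, so their calls are no support for a rise. No overlap was seen in 33 of 35, beside 65.8% of all entries. Among the 9 most counted carriers 8 were higher, all but Slc1a4, again with no share of all entries at that level computed.

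The third comparison, TGF-alpha plus gefitinib against control, asks how far the treated cells then stood from untreated ones. Of the 35 genes 6 passed (17.1%), 3 higher (Slc7a2, Slc6a8 and Slc36a1) and 3 lower (Slc7a11, Slc1a4 and Slc7a6), against 9.52% of all entries, 5.27% higher and 4.26% lower. The median log2 difference was -0.0034, and Slc7a11 alone of the 6 differed by at least 1.5-fold (2.06% of all entries did). The libraries did not overlap in 21 of 35, beside 52.1% of all entries. This count is small and rests on few libraries: DESeq2 called 3, and 2 were called without control 1, 3 without control 2 and 3 without TGF-alpha plus gefitinib 2. Slc7a2 and Slc6a8 passed under each of the 12 alternatives tried. A gene that did not pass is not shown to have returned to its control level.

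**Figure D2:**
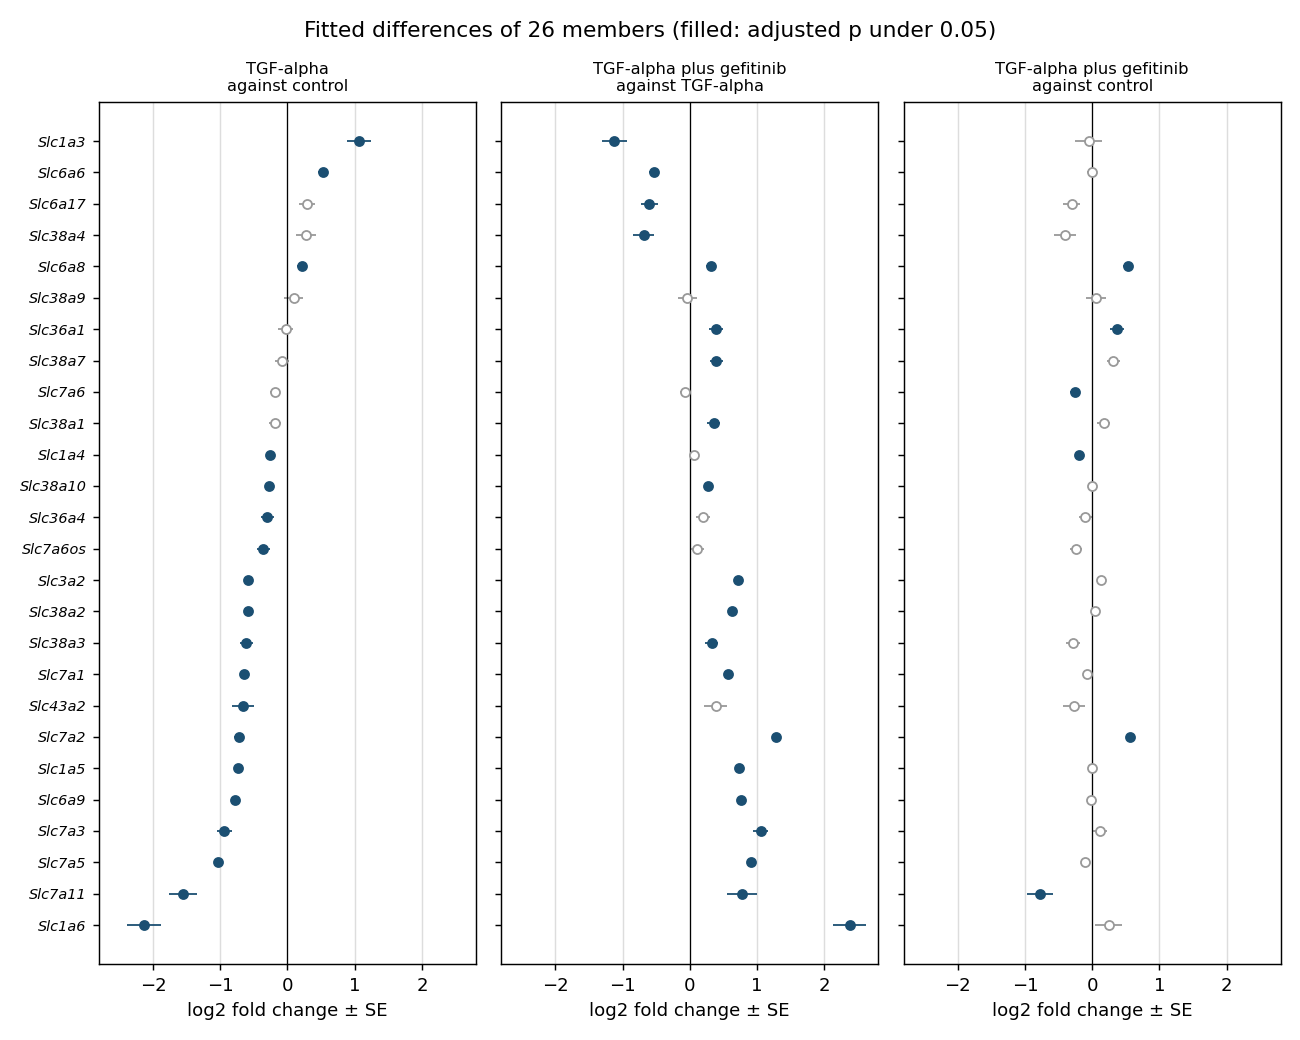
Fitted log2 fold changes with standard errors (horizontal axes) of 26 genes in the 3 comparisons, in 1 order for all panels, with filled points for an adjusted p under 0.05. Points lie mostly left of 0 with TGF-alpha, mostly right of 0 with gefitinib added, and 6 are filled against control.

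Among the exchangers built of a heavy and a light chain, the heavy chain and the light chains Slc7a5 and Slc7a11 fell with TGF-alpha. Slc7a8 was called as well, but it passed the filter on low counts only through the groups where it was high, so its call is no support for the fall. Slc3a2 (chromosome 19, 8706882 to 8723369, GRCm38) was at 291 and 266 CPM in control, 188 and 182 with TGF-alpha and 302 and 308 with TGF-alpha plus gefitinib. The TGF-alpha libraries were lowest and the groups did not overlap. Slc3a2 fell 1.504-fold with the ligand (log2 -0.59 ± 0.05 SE, edgeR adjusted p = 7.94e-07) and was 1.65-fold higher with gefitinib (0.72 ± 0.05, adjusted p = 8.28e-08).

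Slc7a5 encodes LAT1, which brings in leucine and other large neutral amino acids (chromosome 8, 121881150 to 121907694). It was at 219.6 and 213 CPM in control, 111 and 101 with TGF-alpha, and 208 and 193 with both agents. The ligand lowered it 2.04-fold (log2 -1.03 ± 0.06, adjusted p = 7.55e-09) and gefitinib raised it 1.89-fold (0.92 ± 0.06, adjusted p = 2.58e-08). Its libraries with both agents lay just under control, a difference that did not pass (log2 -0.11 ± 0.06, adjusted p = 0.284).

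Slc7a11 encodes xCT, which takes up cystine in exchange for glutamate and feeds glutathione synthesis (chromosome 3, 49892526 to 50443614). Its levels were 9.44 and 8.66 CPM in control, 3.25 and 2.91 with TGF-alpha and 5.69 and 4.80 with TGF-alpha plus gefitinib. The libraries with both agents lay between the others without overlap. The fall with TGF-alpha was 2.93-fold (log2 -1.55 ± 0.21, adjusted p = 4.37e-05). With gefitinib it was 1.71-fold higher than with TGF-alpha (0.77 ± 0.22, adjusted p = 0.0144) and 1.72-fold lower than control (-0.78 ± 0.20, adjusted p = 0.0205). Both of these calls were lost with DESeq2 (adjusted p = 0.0659 and 0.0776). Each was also lost without some single libraries: the rise without TGF-alpha 2 or without TGF-alpha plus gefitinib 1 (0.0812 and 0.111), and the difference from control without control 1, control 2 or TGF-alpha plus gefitinib 2 (0.127, 0.0801 and 0.127).

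Slc7a6, the light chain y+LAT2, which exchanges arginine for glutamine, differed little between the groups. It was at 59.4 and 61.1 CPM in control, 51.8 and 54.4 with TGF-alpha and 48.5 and 52.2 with both agents. Only the last of these groups passed against control (log2 -0.26 ± 0.07, adjusted p = 0.0318), and that call was lost with DESeq2 (0.104) and without control 1, control 2 or TGF-alpha plus gefitinib 1 (0.112, 0.187 and 0.164). Slc7a8, the light chain LAT2, was singled out after its values were seen. It had 32 counts in the control libraries, 1 with TGF-alpha and 32 with both agents (edgeR adjusted p = 0.00326 for TGF-alpha against control). Scaled to library size, control was 31.0 times the TGF-alpha level. The 95% counting interval (Clopper-Pearson), from 5.18 to 1262, leaves out the spread between libraries and the picking of the gene by these counts. It is therefore no support for a fall. The fitted fold of so low a gene is unsteady: its log2 value was -6.96 without TGF-alpha 1 and -3.79 without TGF-alpha 2, beside -4.63 with all libraries. Slc7a7 was between 2.09 and 3.76 CPM in all libraries and passed in no comparison.

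Carriers of cationic amino acids bring in arginine and lysine. With TGF-alpha 3 of 4 tested members fell (75%, beside 14.0% of all entries). With gefitinib 3 of 4 were higher than with TGF-alpha alone (75%, beside 17.0%). Slc7a1, which encodes CAT1, the general arginine carrier of most cells (chromosome 5, 148327410 to 148399904), was at 169 and 177 CPM in control, 111 and 111 with TGF-alpha and 167 and 162 with both agents. It fell 1.56-fold (log2 -0.64 ± 0.05, adjusted p = 3.04e-07) and was 1.48-fold higher with gefitinib (0.57 ± 0.05, adjusted p = 1.06e-06).

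Slc7a2 encodes CAT2 (chromosome 8, 40862396 to 40922308). Its levels were 157 and 163 CPM in control, 93.5 and 100.4 with TGF-alpha and 248 and 223 with TGF-alpha plus gefitinib. Here the libraries with both agents were the highest of the 6 and did not overlap control. Slc7a2 fell 1.65-fold with the ligand (log2 -0.72 ± 0.06, adjusted p = 4.97e-07), was 2.43-fold higher with gefitinib (1.28 ± 0.06, adjusted p = 8.26e-10) and stood 1.47-fold above control (0.56 ± 0.06, adjusted p = 3.68e-05). An opposite-strand gene, Gm26584, overlaps 635 bases of its exons, and reads there cannot be assigned, since it is not known whether counting used strand.

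Slc7a3, which encodes CAT3, was at 39.7 and 38.2 CPM in control, 23.0 and 17.7 with TGF-alpha and 41.2 and 43.4 with both agents. The TGF-alpha libraries were lowest, 1.91-fold under control (log2 -0.94 ± 0.11, adjusted p = 1.27e-05). Slc7a4, an orphan relative of these carriers, was between 1.02 and 2.56 CPM and passed in no comparison, with its highest values in the 2 libraries with gefitinib.

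The glutamate and aspartate carriers moved in both directions with TGF-alpha: of 3 tested, Slc1a6 and Slc1a1 fell and Slc1a3 rose. That is 66.7% and 33.3% of them, beside 14.0% and 15.9% of all entries. Slc1a6 encodes EAAT4, best known from Purkinje cells of the cerebellum (chromosome 10, 78780496 to 78814765). It was at 7.81 and 5.99 CPM in control, 1.59 and 1.53 with TGF-alpha and 8.02 and 8.24 with both agents. Its fold was the largest of the tested genes whose mean reached 5 CPM, a 4.39-fold fall (log2 -2.13 ± 0.25, adjusted p = 1.09e-05) and a 5.19-fold higher level with gefitinib (2.38 ± 0.25, adjusted p = 2.88e-06). Syt1 of the neuron list moved with it, at 7.81 and 8.02, 0.793 and 0.654, and 10.4 and 10.4 CPM, while Rbfox3 was at 0. Of the 3 tested neuron markers, however, 1 lay higher with TGF-alpha (log2 1.73, not called). With gefitinib against TGF-alpha alone, 1 of the 3 was called higher and 1 lower (log2 -2.60). The part of neurons was not tested.

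Slc1a3 encodes GLAST, the glutamate and aspartate carrier of astrocytes (chromosome 15, 8634124 to 8710764). In contrast to Slc1a6 it was at 5.39 and 4.84 CPM in control, 11.4 and 9.96 with TGF-alpha and 4.86 and 4.96 with both agents. The TGF-alpha libraries were highest and stood apart. The rise was 2.09-fold (log2 1.07 ± 0.18, adjusted p = 0.000376), and the level with gefitinib was 2.17-fold lower (-1.12 ± 0.18, adjusted p = 0.000244). The astrocyte marker Aldh1l1 moved with it, at 6.01 and 5.41, 12.1 and 14.0, and 6.30 and 8.40 CPM (2.29-fold higher with TGF-alpha, adjusted p = 0.000137, and 1.79-fold lower with gefitinib, 0.00201). Of the 3 tested glia markers, though, 1 was called lower with TGF-alpha (log2 -1.45) and 1 was called higher with gefitinib (1.14). Gfap was at most at 0.234 CPM and Aqp4 at 0, and the part of such cells in the result was not tested. Slc1a1, which encodes the glutamate and cysteine carrier EAAT3, had a mean under 5 CPM. It fell by 1.41 on the log2 scale with TGF-alpha (SE 0.33, adjusted p = 0.00398), and the exons of an opposite-strand gene, 4430402I18Rik, overlap 2631 bases of its own.

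Both neutral exchangers of the same family fell with the ligand, but by unlike amounts. Slc1a5 encodes ASCT2, which takes up glutamine (chromosome 7, 16781340 to 16798274). It was at 213 and 216 CPM in control, 127 and 132 with TGF-alpha and 215 and 214 with both agents. That is a 1.66-fold fall (log2 -0.73 ± 0.05, adjusted p = 4.1e-08) and a 1.66-fold higher level with gefitinib (0.73 ± 0.05, adjusted p = 3.91e-08).

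Slc1a4, the carrier ASCT1 whose promoter is printed above, was at 173 and 172 CPM in control, 141 and 146 with TGF-alpha and 151 and 149 with TGF-alpha plus gefitinib. All 4 treated libraries were below control. It fell 1.20-fold with TGF-alpha (log2 -0.26 ± 0.05, adjusted p = 0.00113) and gefitinib did not move it beyond the test (0.07 ± 0.05, adjusted p = 0.365). Its lower level with both agents than in control (log2 -0.20 ± 0.05, adjusted p = 0.0247) did not pass without any 1 of the 4 libraries compared (adjusted p from 0.0532 to 0.138).

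The Slc38a family holds sodium-coupled carriers of glutamine, alanine and related amino acids. With TGF-alpha 3 of 8 tested members fell and 0 rose (37.5% and 0%, beside 14.0% and 15.9% of all entries). With gefitinib 5 were higher and 1 lower (62.5% and 12.5%, beside 17.0% and 16.9%). Slc38a2 encodes SNAT2, the system A carrier that cells induce when amino acids are short (chromosome 15, 96687392 to 96699730). It was at 325 and 333 CPM in control, 219.7 and 217 with TGF-alpha and 345 and 332 with both agents. It fell 1.51-fold (log2 -0.59 ± 0.05, adjusted p = 1.84e-07) and was 1.55-fold higher with gefitinib (0.63 ± 0.05, adjusted p = 8.24e-08).

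Slc38a10 (365 and 347, 286 and 300.1, 360.0 and 350.0 CPM in control, TGF-alpha and both agents) moved in the same directions by less. Its fall was 1.21-fold (log2 -0.28 ± 0.05, adjusted p = 0.000426), and an opposite-strand gene, Gm11769, overlaps 367 bases of its exons. Slc38a3, the system N carrier SNAT3, was at 57.2 and 61.6 CPM in control, 34.9 and 43.04 with TGF-alpha and 52.2 and 45.2 with both agents. It fell 1.53-fold (log2 -0.61 ± 0.10, adjusted p = 0.000248). Its level with gefitinib was higher than with TGF-alpha alone (0.32 ± 0.10, adjusted p = 0.0226), but not so in DESeq2 (0.0531) or without TGF-alpha 1 or without TGF-alpha plus gefitinib 1 (0.266 and 0.237).

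Slc38a1 and Slc38a7 did not pass with TGF-alpha, and both were higher with gefitinib than with TGF-alpha alone. Slc38a1, the glutamine carrier SNAT1, was at 44.1 and 43.6 CPM in control, 41.7 and 35.3 with TGF-alpha and 46.1 and 52.7 with both agents (log2 0.36 ± 0.09 against TGF-alpha, adjusted p = 0.00844). Slc38a7, which exports glutamine from lysosomes, was at 33.6 and 40.0, 35.7 and 34.2, and 42.9 and 49.2 CPM in the same order (0.39 ± 0.10, adjusted p = 0.0064). Both calls were lost without TGF-alpha 2 (0.112 for Slc38a1 and 0.0528 for Slc38a7) or without TGF-alpha plus gefitinib 2 (0.0884 and 0.068).

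Slc38a4, the system A carrier SNAT4, went the other way. Its libraries were at 11.3 and 9.36 CPM in control, 12.2 and 12.9 with TGF-alpha, and 7.88 and 7.68 with both agents, the last being the lowest. It was 1.61-fold lower with gefitinib than with TGF-alpha alone (log2 -0.69 ± 0.15, adjusted p = 0.00313). Slc38a9, the lysosomal arginine sensor of the mTORC1 pathway, was at 10.3 and 13.0, 12.4 and 12.6, and 11.99 and 12.4 CPM. The first control library was the lowest of the 6, and no comparison passed (log2 0.09 ± 0.14 with TGF-alpha, adjusted p = 0.68).

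**Figure D3:**
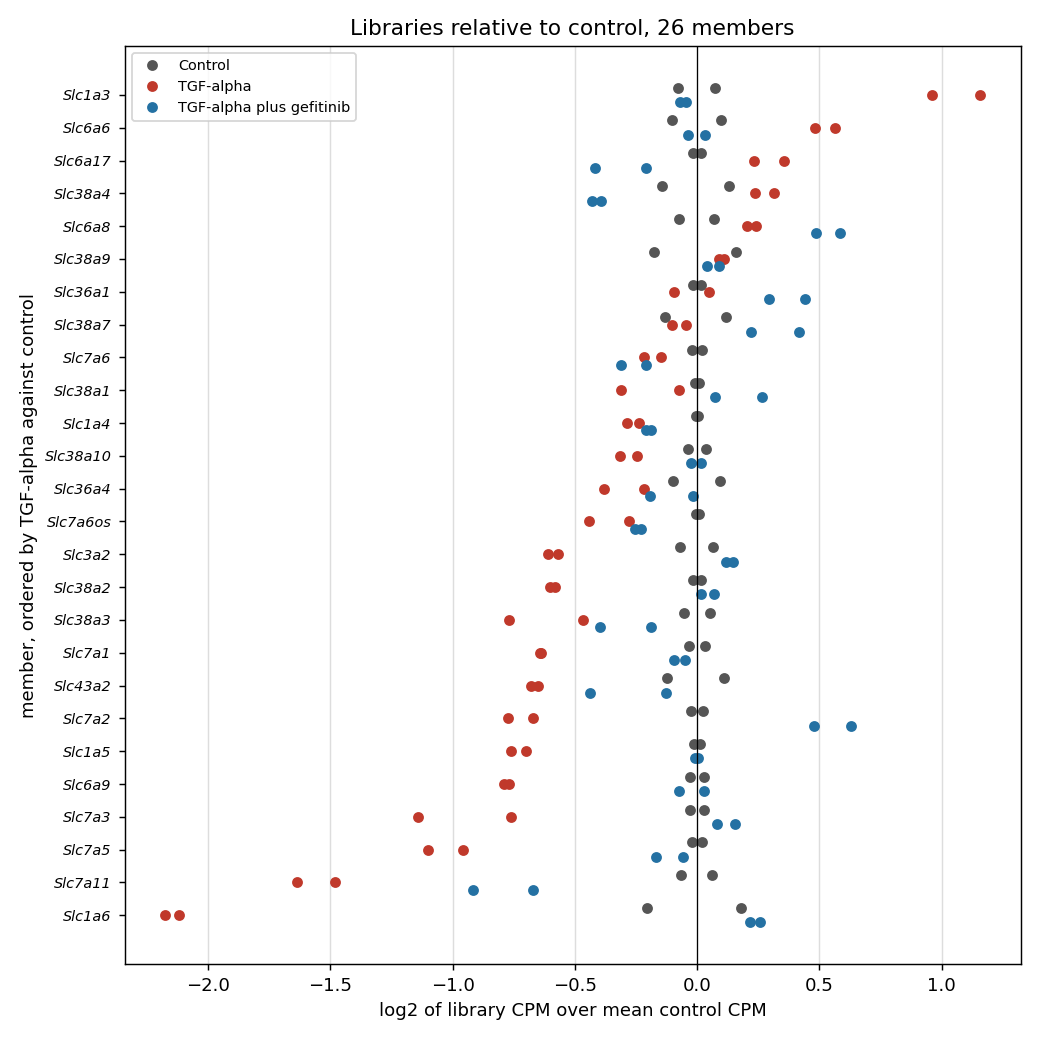
Each library's CPM over the mean control CPM on a log2 axis, for 26 genes ordered by TGF-alpha against control, with 2 points per group. Slc1a6 lies lowest with TGF-alpha and Slc1a3 highest, and in Slc7a11 the libraries with both agents lie between those of the other groups.

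The proton-coupled carriers of the Slc36a family, which move small neutral amino acids across plasma and lysosomal membranes, had 2 tested members. Of these 1 fell with TGF-alpha and 1 was higher with gefitinib (50% each, beside 14.0% and 17.0% of all entries). Such counts are too small to speak for the family. Slc36a1, which encodes PAT1, was at 18.0 and 18.4 CPM in control, 18.8 and 17.1 with TGF-alpha and 24.7 and 22.3 with both agents. The libraries with gefitinib were highest, 1.31-fold above TGF-alpha (log2 0.39 ± 0.11, adjusted p = 0.0124) and 1.29-fold above control (0.37 ± 0.11, adjusted p = 0.0465). The difference from control was lost under 10 of the 12 alternatives, with adjusted p from 0.0514 to 0.228. The difference from TGF-alpha was lost with DESeq2 (0.0755) and without TGF-alpha 2 or without TGF-alpha plus gefitinib 1 (0.104 and 0.114).

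Slc36a4, which encodes PAT4, was at 37.5 and 42.9 CPM in control, 30.9 and 34.6 with TGF-alpha and 39.7 and 35.2 with both agents. It fell 1.23-fold with TGF-alpha (log2 -0.30 ± 0.10, adjusted p = 0.0335). That call was lost with DESeq2 (0.0975) and without control 2 or TGF-alpha 1 (0.286 and 0.233).

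Of the Slc43a family, 1 of 3 tested genes fell with TGF-alpha (33.3%, beside 14.0% of all entries), too few to speak for the family. Slc43a2, the carrier of leucine and other large neutral amino acids called LAT4, was at 12.7 and 10.8 CPM in control, 7.50 and 7.34 with TGF-alpha and 8.70 and 10.8 with both agents. It fell 1.58-fold (log2 -0.66 ± 0.17, adjusted p = 0.0072), a call lost without control 1 (0.0711). Slc43a1 (1.44 to 2.29 CPM) and the nucleobase transporter Slc43a3 (22.4 to 27.7 CPM) did not pass in any comparison.

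The glycine carrier GlyT1, encoded by Slc6a9 (chromosome 4, 117834506 to 117875198), fell with TGF-alpha. It was at 119 and 124 CPM in control, 70.2 and 71.2 with TGF-alpha and 124 and 115 with both agents. The fall was 1.72-fold (log2 -0.78 ± 0.06, adjusted p = 1.37e-07) and the level with gefitinib was 1.69-fold higher (0.76 ± 0.06, adjusted p = 1.77e-07). Exons of B4galt2, Ccdc24 and Gm17114 on the other strand overlap 1555 bases of this gene. Slc6a17, a vesicular carrier of neutral amino acids in neurons, was at 16.1 and 15.7, 20.3 and 18.7, and 13.8 and 11.9 CPM. It was 1.51-fold lower with gefitinib than with TGF-alpha alone (log2 -0.60 ± 0.12, adjusted p = 0.00143).

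Of the Slc6a carriers of GABA, monoamines, taurine, betaine and creatine, 2 of 4 tested rose with TGF-alpha and 0 fell. That is 50% and 0% of them, beside 15.9% and 14.0% of all entries. The other two, Slc6a2 and Slc6a12, were at log2 0.13 ± 0.53 and -0.91 ± 0.57 and did not pass. Slc6a6, the taurine carrier, was at 68.1 and 59.2 CPM in control, 88.9 and 94.0 with TGF-alpha and 61.9 and 65.1 with both agents. The TGF-alpha libraries were highest, 1.44-fold above control (log2 0.53 ± 0.07, adjusted p = 5.75e-05), and gefitinib lowered the gene by the same fold (-0.53 ± 0.07, adjusted p = 5.3e-05).

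Slc6a8, the creatine carrier, was at 45.7 and 50.5 CPM in control, 56.8 and 55.4 with TGF-alpha and 72.1 and 67.5 with both agents. The groups did not overlap, and those with both agents were highest. It was higher with TGF-alpha than in control (log2 0.22 ± 0.07, adjusted p = 0.0363), higher with gefitinib than with TGF-alpha alone (0.32 ± 0.07, adjusted p = 0.00345), and 1.45-fold above control with both (0.53 ± 0.07, adjusted p = 0.000276). The small rise with TGF-alpha was lost with DESeq2 (0.147), with replicate number as a block (0.0504), and without control 1, TGF-alpha 1 or TGF-alpha 2 (0.273, 0.165 and 0.101). Slc6a12, the betaine and GABA carrier, stayed under 2 CPM and passed the filter on low counts through the libraries with gefitinib, where it was highest. It was higher with gefitinib than with TGF-alpha (log2 1.92 ± 0.51, adjusted p = 0.00961), a call lost without either TGF-alpha library or TGF-alpha plus gefitinib 1 (0.0614, 0.0776 and 0.0508).

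Slc7a6os, which is no transporter, was at 31.8 and 31.6 CPM in control, 23.4 and 26.2 with TGF-alpha and 26.6 and 27.0 with both agents. It fell 1.28-fold with TGF-alpha (log2 -0.36 ± 0.10, adjusted p = 0.0104), and the call was lost with DESeq2 (0.0513) and without control 1, control 2 or TGF-alpha 1 (0.0524, 0.0518 and 0.107). Without it and Slc6a19os, 20 of 34 tested transporters passed in the first comparison, 17 of them lower (58.8% and 50%, beside 29.9% and 14.0% of all entries). These 17 still include Slc7a8.

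Other genes of amino acid handling were taken as 4 lists, none of which holds a gene described above. The amino acid response, the ATF4 program, fell with TGF-alpha in 16 of 24 tested genes and rose in 2 (66.7% and 8.33%, beside 14.0% and 15.9% of all entries; median log2 -0.59, beside 0.0039 for all entries). Atf4 itself was at 539 and 540.5 CPM in control, 327 and 317 with TGF-alpha and 552 and 546 with both agents (log2 -0.74 ± 0.04 with TGF-alpha, adjusted p = 6.89e-09). Aldh1l2 of mitochondrial folate metabolism fell from a mean of 429 to 245 CPM, Trib3, a pseudokinase that ATF4 induces, from 262 to 151, and Chac1, which degrades glutathione, from 125 to 59.4.

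With gefitinib 16 of the 24 rose against TGF-alpha alone and 3 fell (66.7% and 12.5%, beside 17.0% and 16.9% of all entries; median log2 0.59). Against control 6 were higher and 0 lower (25% higher, beside 5.27%). Ddit3, the stress factor CHOP, was at 159 and 156 CPM in control, 98.7 and 106 with TGF-alpha and 276 and 294 with both agents. Its libraries with both agents were highest and stood 1.81-fold above control (log2 0.85 ± 0.05, adjusted p = 3.46e-07). Atf3, Trib3 and Chac1 also passed against control, at means of 21.1, 312 and 161 CPM with both agents and 10.7, 262 and 125 in control.

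Enzymes of amino acid synthesis and breakdown were mixed with TGF-alpha, with 6 of 25 tested higher (24%, beside 15.9% of all entries) and 8 lower (32%, beside 14.0%). Among the lower ones were Pycr1 and Aldh18a1 of proline synthesis (170.1 to 96.9 and 396 to 304 CPM), Odc1, the first enzyme of polyamine synthesis (99.6 to 54.9), and Bcat1, which transaminates branched-chain amino acids (116 to 67.6). Gefitinib with TGF-alpha gave 11 higher and 3 lower against TGF-alpha alone (44% and 12%, beside 17.0% and 16.9%), and 1 higher and 4 lower against control (4% and 16%, beside 5.27% and 4.26%). Got1, the cytosolic aspartate aminotransferase, was the 1 enzyme above control with both agents (64.9 against 50.2 CPM; log2 0.37 ± 0.07, adjusted p = 0.00348).

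The mTORC1 sensing list holds the kinase Mtor and its partner Rptor beside proteins that pass signals to them. It pools activators with inhibitors such as Tsc1 and Tsc2, so its counts give no direction of the pathway. With TGF-alpha 3 of 33 were higher and 8 lower (9.09% and 24.2%, beside 15.9% and 14.0% of all entries). With gefitinib added 13 rose and 3 fell against TGF-alpha alone, and 10 were above and 1 below control (39.4% and 9.09%, beside 17.0% and 16.9%; then 30.3% and 3.03%, beside 5.27% and 4.26%). Flcn, which encodes folliculin, was at 21.3 and 21.7 CPM in control, 22.5 and 24.9 with TGF-alpha and 46.0 and 43.6 with both agents. It did not pass with TGF-alpha, and was 2.08-fold above control with gefitinib added (log2 1.06 ± 0.09, adjusted p = 5.6e-06). Lamtor1, part of the lysosomal scaffold, and Rragc, a GTPase of the pathway, went from means of 54.5 and 67.4 CPM in control to 78.5 and 93.1 with both agents.

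Amino acid carriers outside the 7 families, mostly mitochondrial and lysosomal, gave 1 of 15 higher and 2 lower with TGF-alpha (6.67% and 13.3%), no more than the 15.9% and 14.0% of all entries. With gefitinib against TGF-alpha alone 6 were higher and 2 lower (40.0% and 13.3%, beside 17.0% and 16.9%), and against control 2 were higher and 0 lower (13.3% higher, beside 5.27%). Slc25a38, the mitochondrial glycine carrier, fell from a mean of 24.6 to 14.2 CPM and was at 27.8 with both agents. Slc25a13, an aspartate-glutamate carrier, rose from 9.86 to 21.7 CPM and was at 10.6 with both agents. The lysosomal cystine exporter Ctns and the lysosomal cationic amino acid exporter Pqlc2 passed against control, at 34.9 and 14.0 CPM with both agents and 25.6 and 9.59 in control.

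**Figure D4:**
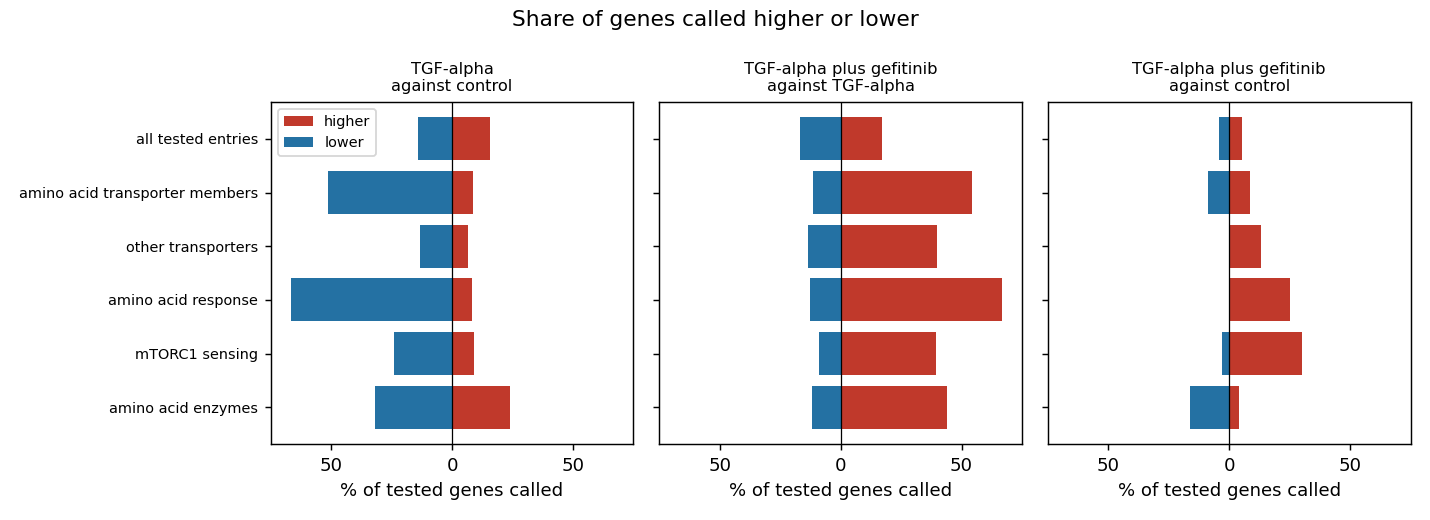
Percent of tested genes called higher (right) and lower (left) at an adjusted p under 0.05 in each comparison (horizontal axes), for all tested entries, the 35 tested members and 4 other lists. With TGF-alpha 51.4% of the members and 66.7% of the amino acid response genes were lower, beside 14.0% of all entries.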

How the data were processed

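The 6 libraries were made and read by Ion Proton protocols, per the labels. The authors deposited whole-number read counts per gene that were not normalized, with replicates not pooled. The submitters' processing notes name the build GRCm38. Which aligner, counter and annotation were used, and whether strand was, is not given in the sources used here.

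Counts were analysed with edgeR 4.0.16 in R 4.3.3. Entries were kept by filterByExpr (minimum count 10) and scaled by TMM. The two-sided quasi-likelihood test used all 6 libraries and no term but group, and was adjusted by Benjamini-Hochberg over 15362 entries. The fit was tested on simulated data. An SE is the absolute log2 fold change divided by the square root of F. Alternatives were DESeq2 1.42.0, its size factors, no filter, mRNA entries only, the 4 libraries compared, a replicate block and leaving out each library. Positions and lengths came from GENCODE M21, promoters from RefSeq.

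The genes and lists were chosen with earlier results of these data known. Values in every library are given for genes called in any comparison that averaged 5 CPM or more and for a fixed set of 12 transporters, and for list genes by smallest p, up to 4 per list and comparison, not all of which are printed. Protein sequences were not used here.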

Additional observations from a re-analysis of the deposited data

How the results depend on the processing

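Under the 12 alternatives the number of the 35 tested genes called with TGF-alpha against control ranged from 18 to 22, and with gefitinib against TGF-alpha alone from 18 to 23. Of the 21 and 23 called genes, 17 and 16 passed under every alternative that tested them. Slc7a8 is among both the 17 and the 16, but with gefitinib against TGF-alpha alone only 11 of the 12 alternatives tested it. Against control with both agents, 2 of 6 passed under all 12. There DESeq2 called 3 in place of 6 and 1 lower in place of 3, and the higher count was 5 in place of 3 both with no filter on low counts and among mRNA entries only. Leaving out 1 library gave 2 to 5 calls, 2 to 3 higher and 0 to 3 lower, with 0 lower without either control library. A fit without a library leaves 1 sample in a group and assumes that it varies like the others. In the whole table DESeq2 called 946 entries there in place of 1463. The cause of these shifts was not tested.

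Replicate numbers are not stated to pair the libraries. The deviations of same-numbered libraries correlated at 0.0034, 0.011 and -0.023 across genes. Such values show no broad shared shift, but a small one could go unseen, so they cannot decide whether libraries were paired. With the replicate block 20, 23 and 5 of the genes were called in the 3 comparisons, 2 higher and 18 lower in the first, and the calls of Slc6a8 with TGF-alpha and of Slc36a1 against control were lost.

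In 18 results that were not called, the sign of the log2 difference turned (lowest adjusted p 0.587), all but 1 of them on leaving out a library. Over the fits without 1 library, the difference of TGF-alpha from control ranged from -0.093 to 0.044 for Slc36a1, from -0.20 to 0.054 for Slc38a7 and from -0.059 to 0.28 for Slc38a9. The difference of both agents from control ranged from -0.38 to 0.36 for Slc1a1, -0.13 to 0.021 for Slc1a3, -0.84 to 0.72 for Slc7a8, -0.013 to 0.0077 for Slc1a5, -0.039 to 0.032 for Slc38a10, -0.092 to 0.24 for Slc38a9, -0.079 to 0.028 for Slc6a9 and -0.10 to 0.10 for Slc6a6, which was also at 0.00083 among mRNA entries only. Levels per kilobase moved by 1.0 to 2.37 times with the longest transcript as the length.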
